A study of Canis lupus familiaris with 6 samples.

Results

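The genes described here encode the machinery that moves new proteins into the endoplasmic reticulum (ER), trims and glycosylates them, and helps them fold: SEC61A1 and SEC61B of the protein-conducting channel, SSR1 of the translocon-associated protein complex (TRAP), SEC11A, SEC11C, SPCS2 and SPCS3 of signal peptidase, DDOST of oligosaccharyltransferase, and the chaperones HSP90B1 and CANX. These 10 genes were taken as a fixed list, chosen with earlier results of these data known. Their probes were found by matching each spot's transcript accession to a dog RefSeq gene. Of the 10 genes, 9 had at least 1 matched probe, with 14 probes and 22 spots among the 43584 probes measured on every array. No probe was matched to SPCS3, which was not analysed here.

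Expression was measured on 6 one-colour Agilent dog arrays in scribKD cells, a line of Madin-Darby canine kidney cells (MDCK-II, an epithelial line from the renal tubule) with a tetracycline-inducible short hairpin RNA against scribble, a scaffold protein of epithelial polarity. The cells given 5 µg/ml tetracycline (Tet), in which the hairpin is switched on, were sampled at 30, 45 and 60 h, and the cells left without Tet, which carry the same hairpin, were sampled at the same 3 times. Each condition has 1 array, hybridised with RNA of 3 wells mixed after extraction, so no condition has a replicate array. Cells with Tet but no hairpin are not among these samples, so effects of the drug and of the hairpin cannot be told apart. No probe was matched to SCRIB itself, and the depth of the knockdown was not analysed here.

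A secretory or membrane protein is recognised by the signal recognition particle (SRP) as its signal sequence leaves the ribosome, is handed to the SEC61 channel, loses its signal peptide to signal peptidase and receives N-linked glycans from oligosaccharyltransferase. Calnexin, the product of CANX, then holds the young glycoprotein through its glycan, and GRP94, the product of HSP90B1, folds a narrower set of clients. Several of these complexes were first purified from dog pancreas microsomes. In a polarized kidney epithelium the same route supplies the apical and basolateral membranes.

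Between 64.3% and 68.8% of the 43803 non-control spots on an array were well above background, and 62.5% of probes were so on all 6 arrays. All 14 probes of these genes were well above background on all 6 arrays, with 0 saturated spots and 0 outlier spots, so none entered the tests through 1 arm alone. The epithelial genes CDH1, KRT19, OCLN and TJP1 were also well above background on every array. So was at least 1 probe each of the fibroblast genes COL1A1, COL1A2, PDGFRB and THY1. Neither probe of the fibroblast gene DCN was well above background on any array, and 3 of 4 probes of COL1A1 were not. The endothelial genes VWF and KDR were above background as well, and no leukocyte marker had a matched probe. Slide 1 held both 30 h arrays and the 45 h array without Tet, and slide 2 held the other 3. At 45 h a difference between the arms therefore cannot be told apart from one between slides, and counts over all times include that pair. Values below are log2 of the processed signal relative to the array's 75th percentile, and differences are with minus without Tet unless another contrast is named. A probe's level has no meaning against another probe's, so levels are compared across arrays only.

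Between the arms, SSR1, HSP90B1, SEC61B and CANX were each higher with Tet at all 3 times, by up to 1.46-fold for SSR1 at 60 h, while SEC11A and SEC61A1 were lower at all 3 times by at most 1.15-fold. SEC11C, SPCS2 and DDOST did not keep 1 sign. These are 4 of 9 genes higher at every time, against 28.0% of the 27580 features tested, and 2 of 9 lower, against 21.5%. Both counts rest on few genes, from a list chosen with earlier results of these data known. The median difference of the 9 genes was 0.06 at 30 h, 0.03 at 45 h and -0.03 at 60 h, beside 0.02, 0.03 and 0.00 over all features. In RNA from mixed wells, fewer cells of a type and less RNA per cell cannot be told apart.

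Markers of cell types were read beside these differences, and they did not share 1 direction. Of the 4 epithelial genes, KRT19 stood at -0.28, -0.34 and -0.13, OCLN at 0.11, 0.13 and 0.16, and CDH1 at -0.01, 0.07 and 0.51. The probes of TJP1 disagree, with -0.31, -0.34 and -0.13 on the brighter and -0.25, 0.12 and 0.24 on the other. Of the 4 fibroblast genes above background, read on the brightest probe, 1 was higher with Tet at all 3 times and 0 were lower. It was COL1A1, by 0.26, 0.70 and 0.82 on its 1 probe above background. The processed signal of that probe was only 47 to 81, and with normexp background correction its differences were 0.18, 0.35 and 0.43. PDGFRB had probes that disagree, with 0.02, 0.16 and -0.23 on the brighter and 0.60, 0.47 and 0.36 on the other. COL1A2 did too, with 0.22, -0.06 and -0.11 on the brightest and -0.08, -0.05 and -0.30 on another. Of the 2 endothelial genes, KDR stood at -0.03, 0.29 and 0.53 and VWF at -0.13, 0.09 and -0.06. The signal of KDR was 87 to 124, and its 60 h difference was 0.32 with normexp. Summed signal over the 75th percentile was 78.9 to 87.4 with Tet and 92.2 to 100.2 without Tet for the epithelial genes, 3.59 to 3.73 with Tet and 3.26 to 3.76 without Tet for the fibroblast genes, and 22.0 to 24.7 with Tet and 23.1 to 24.1 without Tet for the endothelial genes. Most of each sum is the signal of 1 probe, of KRT19, COL1A2 and VWF, so the sums follow those probes and not the lists. None of these markers passed an adjusted p of 0.05 for the arms with limma, and their part in the results below was not tested.

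**Figure D1:**
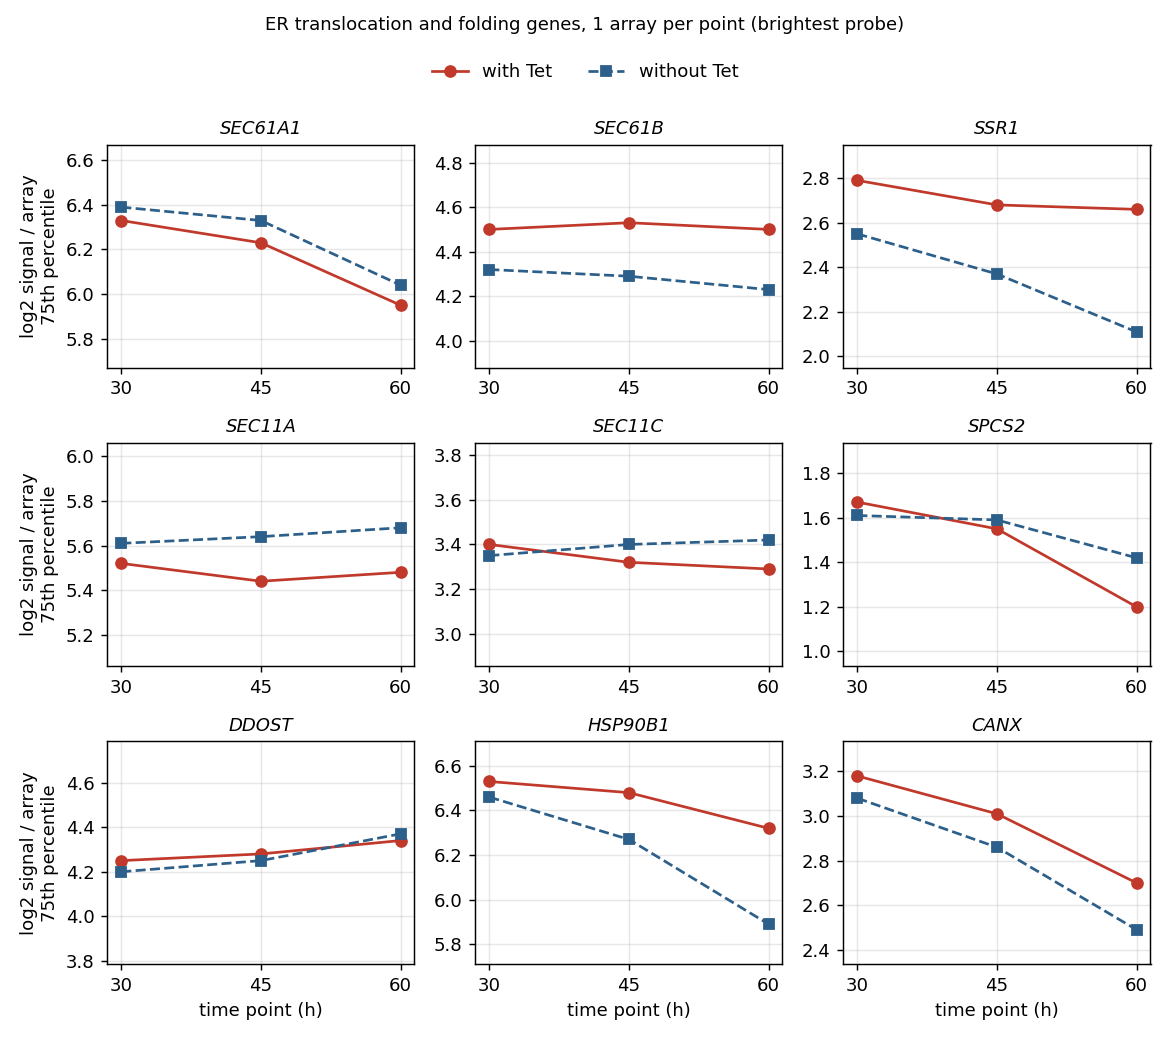
Level of 9 genes (log2 of signal over the array's 75th percentile, vertical span of 1 unit in each panel) against time point in hours, with Tet as red circles and without Tet as blue squares, 1 array per point and the brightest probe of each gene. SSR1 and SEC61B with Tet lie above, and SEC11A with Tet lies below, all 3 arrays without Tet, whereas the arms of HSP90B1 and CANX both slope downward and overlap.

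The SEC61 channel is a heterotrimer, and its subunits stood on different sides of 0. SEC61A1 encodes the subunit that forms the pore. Its brightest probe read 6.33, 6.23 and 5.95 with Tet at 30, 45 and 60 h, against 6.39, 6.33 and 6.04 without Tet. The array with Tet was the lower one at every time, but the readings differed more between the times than between the arms, and the arms overlapped. The differences were -0.06, -0.10 and -0.10, with a mean of -0.09 ± 0.06 (moderated SE, 3 pairs of arrays, limma adjusted p = 0.472). Each ± here and below is limma's moderated SE, which pulls a feature's own spread toward a value shared by all features. A second probe, spotted 5 times on each array, gave -0.07, -0.07 and -0.11, and each of its 5 spots was lower with Tet at each time. The remaining, dimmer probe gave -0.01, 0.07 and -0.07, so the probes disagree at 45 h.

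SEC61B encodes the small tail-anchored subunit at the side of the channel. Its level was nearly flat with Tet, at 4.50, 4.53 and 4.50, against 4.32, 4.29 and 4.23 without Tet. All 3 arrays with Tet lay above all 3 without. These gaps correspond to 1.13-, 1.17- and 1.21-fold (mean difference 0.23 ± 0.07, adjusted p = 0.168). SEC61G, which completes the heterotrimer and is not one of the listed genes, was higher by 0.19, 0.43 and 0.61 (mean difference 0.41 ± 0.10, adjusted p = 0.147).

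SSR1 encodes the alpha subunit of TRAP, which sits beside SEC61 and assists the entry of some signal sequences. It showed the widest gap of the 9 genes, at 2.79, 2.68 and 2.66 with Tet against 2.55, 2.37 and 2.11 without Tet. The arms did not overlap, and the gap was largest at 60 h. The differences of 0.25, 0.31 and 0.55 correspond to 1.19-, 1.24- and 1.46-fold, with a mean of 0.37 ± 0.09 (adjusted p = 0.144). At 60 h, 7.65% of all features tested were at least as far above 0 as SSR1. Its second probe gave 0.21, 0.44 and 0.59, the same direction and nearly the same sizes. Of the other TRAP subunits measured, SSR2 stood at 0.16, 0.00 and 0.11, and SSR4 at -0.02, 0.10 and -0.08, and their difference from SSR1 was not tested.

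Signal peptidase genes were level or lower with Tet at the later times. SEC11A and SEC11C encode alternative catalytic subunits. SEC11A read 5.52, 5.44 and 5.48 with Tet, against 5.61, 5.64 and 5.68 without Tet, and all 3 arrays with Tet lay below all 3 without. It was 1.06-, 1.15- and 1.14-fold lower (mean difference -0.16 ± 0.07, adjusted p = 0.258). SEC11C read 3.40, 3.32 and 3.29 with Tet, against 3.35, 3.40 and 3.42 without Tet. Its difference was 0.04 at 30 h, then -0.07 and -0.12, with a mean of -0.05 ± 0.07 (adjusted p = 0.713), and the 30 h value turned to -0.0023 with normexp background correction.

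SPCS2 encodes a non-catalytic subunit of the same enzyme. Its level was 1.67, 1.55 and 1.20 with Tet, against 1.61, 1.59 and 1.42 without Tet. The arms overlapped, and only the 60 h pair was more than 0.1 apart. The difference was 0.06 at 30 h, -0.04 at 45 h and -0.23 at 60 h, a 1.17-fold lower level at the last time (mean difference -0.07 ± 0.09, adjusted p = 0.658).

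DDOST encodes a non-catalytic subunit of oligosaccharyltransferase, and its mean difference between the arms was the nearest to 0 of the 9. It read 4.25, 4.28 and 4.34 with Tet, against 4.20, 4.25 and 4.37 without Tet. Its single probe is spotted 5 times on each array, and these spots had an SD between 0.05 and 0.06 within an array, which gives their mean a standard error between 0.022 and 0.025. The differences were 0.06, 0.03 and -0.03 (mean 0.02 ± 0.07, adjusted p = 0.883). Spot by spot, 5 of 5 were higher with Tet at 30 h, 4 of 5 at 45 h and 0 of 5 at 60 h. Spots of 1 array share its RNA and are not replicates of a condition, and the 60 h value turned to 0.04 when arrays were scaled by their median.

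Of the chaperones, HSP90B1 encodes GRP94, the HSP90 of the ER. Its brightest probe read 6.53, 6.48 and 6.32 with Tet, against 6.46, 6.27 and 5.89 without Tet. The array with Tet was higher at each time and the 60 h array without Tet was the lowest of the 6. The differences of 0.08, 0.21 and 0.43 correspond to 1.06-, 1.15- and 1.35-fold, with a mean of 0.24 ± 0.10 (adjusted p = 0.234). Its second probe gave 0.15, 0.08 and 0.48, so both probes put most of the gap at 60 h, where 11.5% of all features tested lay at least as far above 0 as the brightest one.

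CANX encodes calnexin, a membrane-bound lectin chaperone. It read 3.18, 3.01 and 2.70 with Tet, against 3.08, 2.86 and 2.49 without Tet. The array with Tet was higher at each time, but readings were lower at each later time in both arms, which overlapped. The differences were 0.10, 0.14 and 0.21 (mean 0.15 ± 0.07, adjusted p = 0.266), and 0.10, 0.03 and 0.11 on its second probe.

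**Figure D2:**
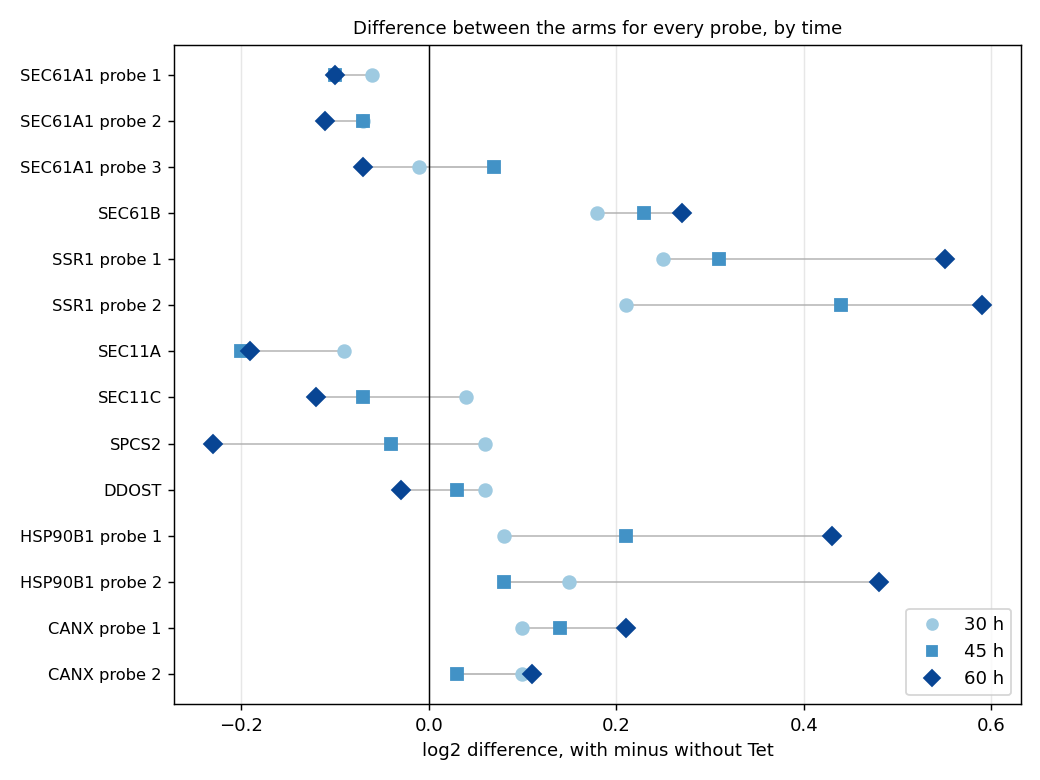
Log2 difference between the arms (with minus without Tet, horizontal axis) for each of the 14 probes, with 30 h as circles, 45 h as squares and 60 h as diamonds, 1 pair of arrays per point. Both probes of SSR1 and of HSP90B1 reach 0.43 to 0.59 at 60 h, and no probe of SEC61A1, SEC11A, SEC11C, SPCS2 or DDOST is above 0.07 at any time.

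None of the 9 genes passed an adjusted p of 0.05 for the arms with limma, and neither did any of the 27580 features (0%). The error in this test is built on the spread of the difference over the 3 times, with 2 residual degrees of freedom. In limma that spread is pulled toward a value shared by all features, with 2.37 prior degrees of freedom. It is not the spread between replicate cultures. At an unadjusted p under 0.05 stood 2 of the 9 genes, SEC61B and SSR1, both higher with Tet, where 12.4% of features were higher and 11.0% lower in this way. The same 2 genes were higher on all 3 arrays with Tet than on any array without (11.9% of features), and SEC11A was lower on all 3 (10.2%). With 9 genes, these counts do not stand apart from the shares over the whole array.

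On the brightest probe, the difference between the arms was larger at each later time for SSR1, HSP90B1, SEC61B and CANX, 4 of 9 against 23.1% of features. It was lower at each later time for SEC11C, SPCS2 and DDOST, 3 of 9 against 27.6%. Its slope per 15 h was 0.18 ± 0.07 for HSP90B1 (adjusted p = 0.294), 0.15 ± 0.07 for SSR1 (adjusted p = 0.363) and -0.14 ± 0.07 for SPCS2 (adjusted p = 0.361), the 3 steepest of the 9. With limma, 0 of the 9 genes and 0% of features had a slope past an adjusted p of 0.05, and at an unadjusted p under 0.05 stood 0 of the 9, against 8.27% of features upward and 10.7% downward. This test has 1 residual degree of freedom, which is how far the 45 h difference lies from a straight line over time. The 45 h pair is the one split between the slides. The steps of SEC61B are small: with normexp its differences were 0.25, 0.24 and 0.25. The second probes of HSP90B1 (0.15, 0.08 and 0.48) and CANX (0.10, 0.03 and 0.11) did not rise at each step. That of SSR1 did, at 0.21, 0.44 and 0.59.

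Several of these genes read lower at later times in both arms. On the brightest probe, HSP90B1, CANX, SEC61A1, SSR1 and SPCS2 were lower at 45 h than at 30 h and lower again at 60 h. This held in both arms, for 5 of 9 genes against 17.1% of features. The second probe of SSR1 read 1.03, 1.11 and 0.91 with Tet, so it was higher at 45 h than at 30 h. Every other probe of HSP90B1, CANX and SEC61A1 was lower at each step in both arms. DDOST was the 1 gene of the 9 with higher readings at both steps in both arms (15.3% of features). The median change of the 9 genes over 60 h against 30 h was -0.28, beside 0.02 over all features. Both comparisons rest on few genes, from a list chosen with earlier results of these data known.

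CANX fell past the threshold, by 0.53 ± 0.08 (moderated SE, 2 arrays per time, 1 from each arm, limma adjusted p = 0.0415), which is 1.45-fold. This is 1 of 9 genes, where 4.21% of features fell and 3.94% rose at that threshold. The error of this test comes from the fit used for the arms, so it is not the spread between replicate cultures. The fall was 0.48 with Tet and 0.59 without Tet on the same probe, and on the second probe 60 h minus 30 h was -0.31 with Tet and -0.32 without. That probe did not pass when each probe was tested on its own (adjusted p = 0.0831). The size of the fall held better than the call: the change was -0.57 to -0.49 with any 1 of the 6 arrays left out (adjusted p between 0.0768 and 0.179), -0.53 with no detection filter (0.167), -0.43 with the mean of both probes (0.0533) and -0.52 with slide as a term (0.935), so the call was lost in each. Since both 30 h arrays are on slide 1 and both 60 h arrays on slide 2, time and slide can be parted only through the 45 h pair.

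For SEC61A1, 60 h minus 30 h was -0.36 ± 0.08 (adjusted p = 0.0659), with -0.38 in the arm with Tet and -0.34 without. On its other probes it was -0.44 and -0.41, and the first of these, the probe of 5 spots, passed on its own at an adjusted p of 0.0499. The same contrast was -0.39 ± 0.12 for HSP90B1 (adjusted p = 0.108), -0.33 ± 0.11 for SPCS2 (0.120) and -0.28 ± 0.11 for SSR1 (0.169), and none of the 3 passed. Single arrays weighed on these values: with 1 array left out at a time, HSP90B1 ranged from -0.54 to -0.25 and SSR1 from -0.42 to -0.15, both nearest 0 without the 60 h array without Tet, and SPCS2 from -0.45 to -0.21, nearest 0 without the 60 h array with Tet. By arm, HSP90B1 stood at -0.21 with Tet and -0.57 without, SSR1 at -0.13 with Tet and -0.43 without, and SPCS2 at -0.47 with Tet and -0.19 without. The tests of these differences are the slopes above, which did not pass.

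For SEC61B, SEC11A and SEC11C it was -0.04, 0.01 and -0.02, and each of these turned sign under another scaling of the arrays. For DDOST it was 0.13 ± 0.08 (adjusted p = 0.351), with 0.09 in the arm with Tet and 0.17 without. Within the SEC61 channel, the pore subunit read lower at 60 h than at 30 h on all 3 probes in both arms. SEC61B stood at 0.00 with Tet and -0.09 without Tet, and SEC61G at 0.50 with Tet and 0.09 without Tet. When arrays were scaled by their median, the values without Tet were -0.20 for SEC61B and -0.02 for SEC61G. Whether subunits of 1 complex differ over time was not tested.

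**Figure D3:**
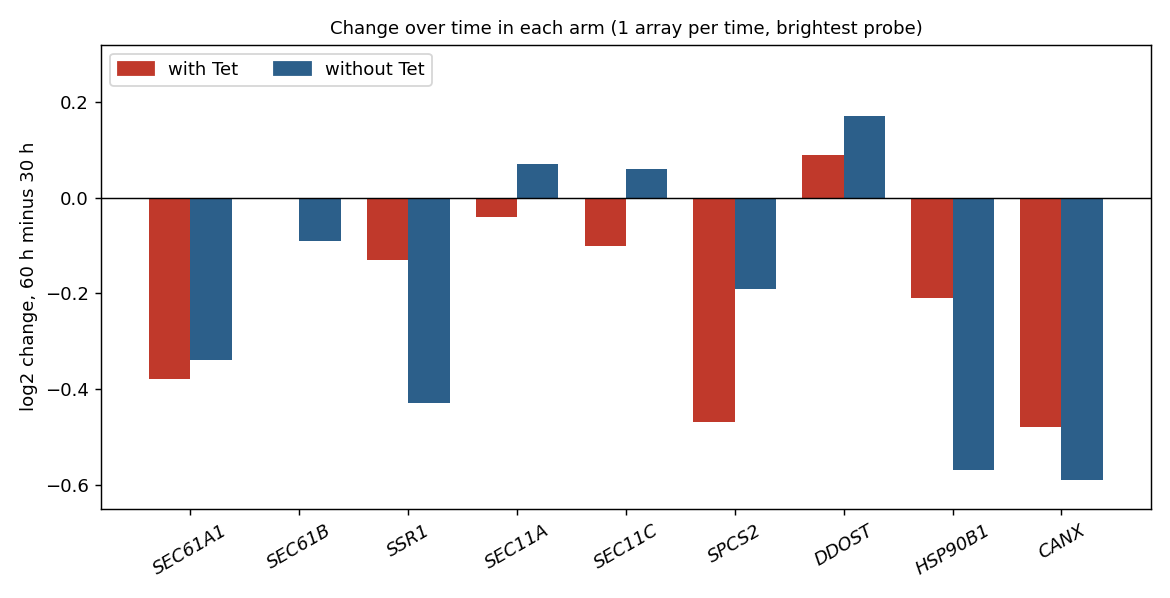
Log2 change from 30 h to 60 h for 9 genes, with Tet as red bars and without Tet as blue bars, 1 array per time in each arm and the brightest probe of each gene. CANX and SEC61A1 have bars of like length in both arms, HSP90B1 and SSR1 have the shorter bar with Tet (-0.21 against -0.57 for HSP90B1), and SPCS2 has the longer one with Tet (-0.47 against -0.19).

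Other genes of the route were read from lists chosen with earlier results known. Of 8 genes of SRP and its receptor, 4 had probes and were tested: 3 were higher with Tet at all 3 times and 0 were lower, where 28.0% of features were higher and 21.5% lower in this way. SRP54, the GTPase that binds the signal sequence, was higher by 0.24, 0.43 and 0.47 (mean difference 0.38 ± 0.08, adjusted p = 0.130), and its second probe gave 0.23, 0.44 and 0.47. SRP68 stood at 0.14, 0.09 and 0.27. SRP14, which binds the Alu end of the particle's RNA, stood at 0.05, 0.07 and 0.14, with a 45 h sign that turned with normexp and on its second probe (-0.06). SRP14 fell over time by 0.50 ± 0.08 (adjusted p = 0.0442), the 1 gene of these lists that passed that test, where 4.21% of features fell. No feature, SRP14 included, passed it with no detection filter, with slide as a term or with any 1 array left out. SRP72 stood at -0.10, 0.02 and 0.12, and at 0.06, 0.01 and 0.18 on its second probe, so its probes disagree in sign at 30 h. Over time SRP54 had the opposite sign, with 60 h minus 30 h at 0.31 (adjusted p = 0.118).

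Of 12 further translocon genes 4 were tested, and 3 of them, SEC61G, TRAM1 and SSR2, were higher with Tet at all 3 times (28.0% of features), SSR2 with a 45 h value of 0.00 whose sign turned under another scaling. TRAM1, a membrane protein that contacts nascent chains at the channel, stood at 0.08, 0.16 and 0.32 (adjusted p = 0.256) with 60 h minus 30 h at -0.42 (adjusted p = 0.0719), in the same direction on its second probe. Of 12 other signal peptidase and oligosaccharyltransferase genes 2 were tested: OSTC stood at 0.12, 0.14 and 0.19, and KRTCAP2 at 0.09, -0.02 and -0.31, with all 3 of its probes lower with Tet at 60 h. Of 24 further ER chaperones 1 was tested, the collagen chaperone SERPINH1, at -0.06, -0.21 and -0.28 and lower at every time on all 3 probes. CLGN was not well above background on any array. Of 18 genes of the unfolded protein response and ER degradation and 25 of ER to Golgi carriers, 0 had a matched probe, so HSPA5, XBP1, ATF4 and DDIT3 were not analysed here. In these lists 0 genes passed an adjusted p of 0.05 for the arms or the slope (limma), and at an unadjusted p under 0.05 for the arms stood SRP54 and SEC61G, both higher with Tet, where 12.4% of features were higher and 11.0% lower.

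**Figure D4:**
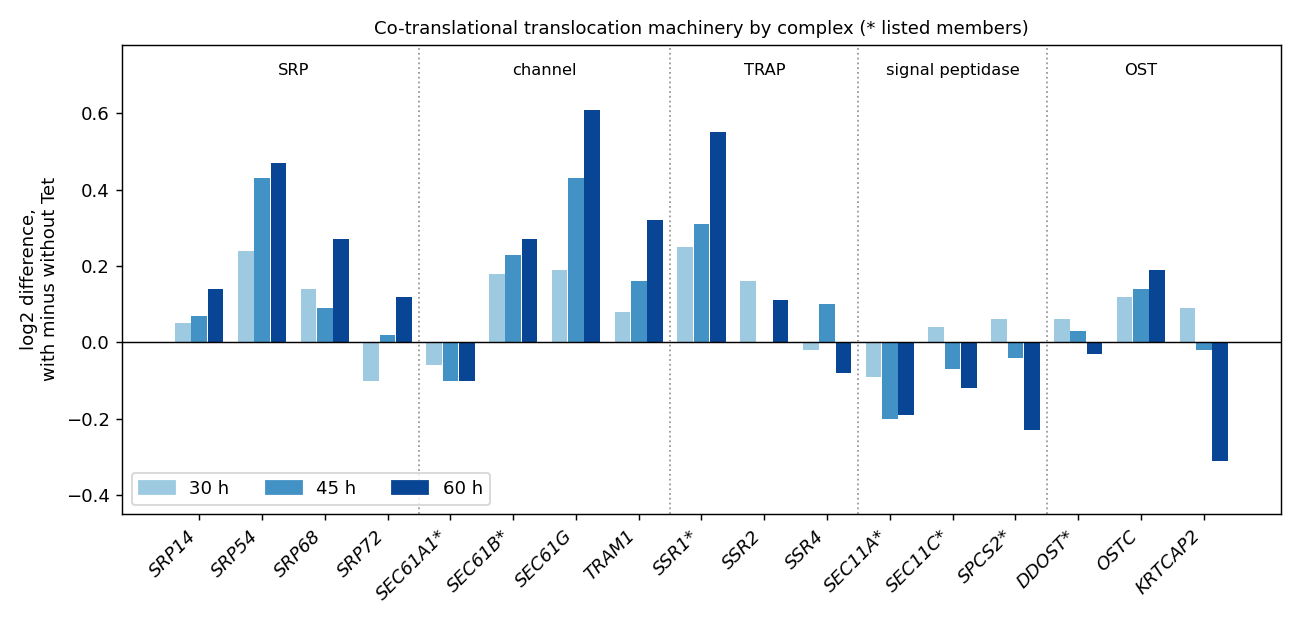
Log2 difference between the arms (with minus without Tet) at 30, 45 and 60 h (light to dark bars) for 17 genes grouped as SRP, channel (with TRAM1), TRAP, signal peptidase and oligosaccharyltransferase (OST), 1 pair of arrays per bar, an asterisk marking the listed genes. SRP54, SEC61G, SEC61B and SSR1 stand above 0 at every time, while SEC61A1 and SEC11A are below 0 at every time.

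The 9 genes did not follow 1 pattern over the 6 arrays. HSP90B1 and SSR1 had a Pearson correlation of 0.92 over the 6 arrays, as did HSP90B1 and CANX. SEC61A1 and SPCS2 correlated at 0.94, and SEC61B and SEC11A at -0.98. SEC61A1 and SEC61B, subunits of 1 channel, correlated at -0.11. All pairs share the same 6 arrays, 3 times and 2 arms, so these values describe these arrays only.

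Among the 998 named genes tested, the 5 most like HSP90B1 over the 6 arrays were SELENOS (r = 0.999), FKBP1A (0.997), PPARD (0.993), SYNGR2 (0.985) and VPS29 (0.984). SELENOS differed between the arms by 0.13, 0.30 and 0.56. The 5 most like CANX were SLC39A7 (r = 0.999), ZNF622 (0.995), SRP14 (0.992), SLC35B4 (0.990) and TIMM8A (0.990). With 6 arrays and this many genes, high values are found for many patterns.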

How the data were processed

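Spot intensity (linear) was read from the authors' deposited scanner output, made with Agilent Feature Extraction 11.5.1.1 per the submitters' processing notes; this processed intensity was background-subtracted and detrended within each array, per the file headers. The deposited series matrix equals it times 1 factor per array (2.30 to 2.62), whose basis no source used here gives. Flags (other values of 0 or 1) come from the same program, per the file headers.

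Outlier spots were dropped (19 probes lost), the log2 values of a probe's spots averaged and each array's 75th percentile subtracted. Names came from accessions matched to RefSeq genes of assembly UU_Cfam_GSD_1.0 (2325 probes with a symbol, 27 with a bare locus, 41232 unnamed); the arrays' build is CanFam3.1, so no coordinates are given. A feature, a gene's brightest probe or an unnamed probe, was tested if 1 arm or both had it well above background on every array.

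Tests used limma 3.58.1 in R 4.3.3 (two-sided, Benjamini-Hochberg over 27580 features, threshold 0.05): arm with time as a block, arm by time per 15 h, and 60 h against 30 h with arm as a term. The fits were tested on simulated data. The listed genes, the other lists and the tests were chosen with earlier results of these data known. All 10 listed genes are named, as are, from each other list, up to 3 genes by difference, 2 by change over time and any past the threshold, and 5 named genes each most like HSP90B1 and CANX. SRP72, SSR4 and the single marker genes were added after their values were seen. Alternatives changed the scaling, source, background correction (normexp, offset 50, on median spot signals), detection filter, probe rule, prior, time and slide terms, and arrays left out. The number of arrays limits precision.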

Additional observations from a re-analysis of the deposited data

Results flagged for a closer look

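The difference between the arms had opposite signs at 30 h and 60 h for 3 of the 9 genes. For SPCS2, the difference at 60 h less that at 30 h was -0.29 (0.06 at 30 h, -0.23 at 60 h), for SEC11C it was -0.16 (0.04 and -0.12) and for DDOST -0.08 (0.06 and -0.03). Each time has 1 array per arm. The slope of the difference over time, which tests this, had limma adjusted p of 0.361, 0.576 and 0.782, so none of the 3 passed. The 30 h sign of SEC11C and the 60 h sign of DDOST each turned under 1 other setting, normexp and scaling by the array median.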

How the results depend on the processing

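The count of these genes past the threshold stayed at 0 for the arms and for the slope under every alternative that could be fitted, and the slope could not be fitted with slide as a term or with an array left out, since no residual degree of freedom remains. Between 4 and 5 genes were higher with Tet at all 3 times, the fifth being DDOST with scaling by the array median. For 60 h against 30 h the count of 1, CANX, became 3 with normexp (HSP90B1 and SEC61A1 added), 2 with the trended and robust prior (SEC61A1 added), and 0 with no detection filter, with the mean of a gene's probes and with slide as a term. Leaving out 1 array at a time gave 0 each time. With no detection filter and with slide as a term, 0 of all features passed. Residual degrees of freedom are fewer with slide as a term and in each of those left-out fits than in the main fit. The cause of the losses was not tested. Signs turned for the mean difference of DDOST with quantile scaling (-0.0037) and of SPCS2 without the 60 h pair (0.01). For the change over time they turned for SEC61B (0.04) and SEC11C (0.07) with quantile scaling, for SEC11A with scaling by the median (-0.06), and for SEC11C with slide as a term (0.01); with single arrays left out, SEC11A ranged from -0.04 to 0.07 and SEC11C from -0.09 to 0.05. The mean difference ranged from 0.28 to 0.43 for SSR1, 0.14 to 0.32 for HSP90B1, 0.21 to 0.25 for SEC61B, 0.11 to 0.18 for CANX and -0.20 to -0.14 for SEC11A, with no turn of sign. Over all features, normexp took the count past the threshold to 135 for the arms, 1763 for the slope and 4124 for time, and a trended, robust prior took it to 16, 1796 and 3771, where the settings of the report gave 0, 0 and 2249. The arms also had 17 when time was left out of the model and 1 without the 30 h pair, and the slope had 191 when arrays were scaled by the median and 2 when detection was required on all 6. No scaling moved the median of all features by over 0.1 for the difference between the arms or for the change over time averaged over the arms. Within 1 arm the move could be larger. Scaling by the array median took the change without Tet from -0.57 to -0.68 for HSP90B1 and from -0.09 to -0.20 for SEC61B. The labels give no replicate numbers, and no condition has a second array. No paired analysis was possible because of this, beyond the pairing of arms by time in the main test.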

Other observations

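ATP2A2, the calcium pump of the ER membrane, has 5 matched probes, and they disagree over time. On 3 of them the 60 h reading was lower than the 30 h one, by -0.45, -0.74 and -0.57 in the arm with Tet and by -0.68, -0.84 and -0.75 in the arm without. The other 2, the brightest among them, stood at -0.09 and -0.13 with Tet and at -0.05 and 0.05 without. The brightest probe had a mean difference between the arms of -0.14 (limma adjusted p = 0.328), while the 3 declining probes were higher with Tet at 60 h by 0.21, 0.21 and 0.18. Which transcripts each probe binds was not analysed here. CYB5R3, a reductase of the ER and mitochondrial outer membranes, stood at -0.05, -0.03 and 0.27 between the arms (limma adjusted p = 0.734).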
